A study of Mus musculus with 2 samples.

Results

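Ankrd1, Ankrd2, Ankrd23, Csrp3, Nrap, Xirp1 and Xirp2 are 7 muscle genes whose products sit where the contractile apparatus is anchored and bears load. They were chosen by symbol from the deposited transcript tables, with their levels in these libraries known, so their levels and the differences between the libraries are a description. No p-value is given for them, and which of them pass the threshold used for all genes is no evidence about them. All 7 were among the 15324 annotated genes with at least 1 read. Of the 1602272 reads of replicate 2 in annotated genes they took 5024, and of the 797105 reads of replicate 1 they took 1904. The study read RNA as long molecules from the gastrocnemius, a calf muscle, of female B6CASTF1/J mice, first-generation hybrids of a C57BL/6 and a CAST strain, at an age of 36 days. Each library was started from 2 µg of RNA, with Lexogen and Ambion mix 1 spike-in RNA added. There is 1 group with 2 libraries and no treated or control animals. The labels name female 04 for replicate 2 and female 03 for replicate 1 under a shared donor entry, so any p-value below compares 2 libraries, and the spread between them may be technical.

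Ankrd1 (CARP), Ankrd2 (Arpp) and Ankrd23 (DARP) form the muscle ankyrin repeat protein family. Its members bind the N2A region of titin, the giant spring of the sarcomere, and also enter the nucleus, and they are known for induction by stretch, injury or metabolic load. Csrp3 encodes muscle LIM protein, a Z disc and nuclear protein of the heart and of slow skeletal muscle. Nrap, a nebulin-related anchoring protein, and the Xin proteins Xirp1 and Xirp2 bind actin and are found at the myotendinous junction and the intercalated disc, where thin filaments end at the membrane.

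Replicate 2 held 14383 annotated genes and replicate 1 held 12293, at 2.01 times the depth in replicate 2. Levels are read counts scaled to a common total of reads in annotated genes (CPM). A single read equals 0.624 CPM at the depth of replicate 2 and 1.25 CPM at that of replicate 1, and a count of 0 allows up to 1.87 CPM in replicate 2 and 3.76 CPM in replicate 1 (3 counts). Each long read was taken as 1 molecule, so CPM was not divided by transcript length. Without molecular identifiers, copies of 1 molecule could not be told from separate molecules. All 8 genes listed as defining this muscle were read in both libraries, with 217264 CPM in replicate 2, against 256576 CPM in replicate 1, mostly Ckm and Acta1. Mb, the myoglobin of oxidative fibres, was the 1 gene of that list past the call, with 1304 CPM in replicate 2, against 30.1 CPM in replicate 1. The slow fibre list stood at 9584 CPM in replicate 2 and 48.9 CPM in replicate 1, where Myh7, Myl2, Myl3 and Myoz2 had no read. Of the cardiac list, 7 of 12 genes had no read in replicate 2 and 9 of 12 had none in replicate 1, among them Nppa, Gata4, Nkx2-5 and Tbx5 in both. Libraries also differed in the share of reads in models of a single exon, with 16.2% in replicate 2 and 9.18% in replicate 1.

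Ankrd23 was the most abundant of the 7, and 5 genes lay within 3-fold between the libraries, while Ankrd2 and Csrp3 were almost confined to replicate 2. Together the 7 genes summed to 3136 CPM in replicate 2 and 2389 CPM in replicate 1. Ankrd23 alone held 48.03% of their reads in replicate 2, against 64.8% in replicate 1. Among these genes, 2 of 7 passed the call used for all genes, and both were higher in replicate 2. The call asks for a 2-fold or larger difference in CPM together with an adjusted p below 0.05 in Fisher's exact test. Over all genes, 911 of 8096 tested passed it, or 11.3%, with 5.78% higher and 5.47% lower in replicate 2. Nothing is read from that count, since the genes were chosen with their levels known. The median log2 ratio of CPM plus 1, replicate 2 over replicate 1, was 0.36 for the 7 genes and 0.05 for all genes tested.

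**Figure D1:**
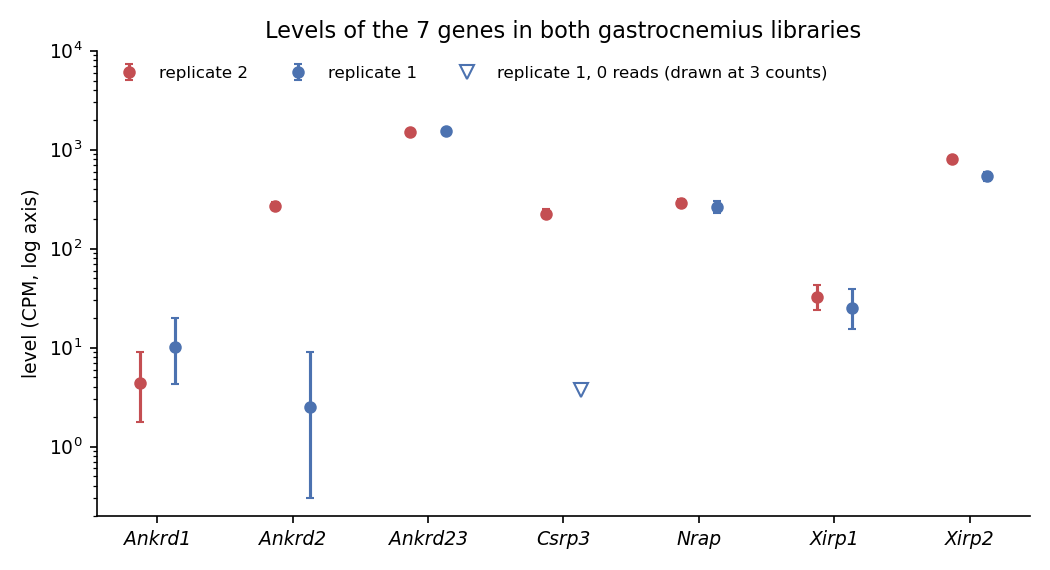
Level of each gene in CPM (log axis) in replicate 2 and replicate 1, with exact Poisson 95% intervals that cover counting error only; the open triangle marks a library with 0 reads, drawn at 3 counts. Ankrd23 lies at 1506 CPM in replicate 2 and 1548 CPM in replicate 1, while Ankrd2 and Csrp3 lie at 268 CPM and 225 CPM in replicate 2 and at or below 3.76 CPM in replicate 1.

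The 3 ankyrin repeat genes differed widely in level. Ankrd23, on chromosome 1 (mm10 chr1:36530188-36536883, minus strand), had 2413 reads in replicate 2 and 1234 in replicate 1. These counts equal 1506 CPM for replicate 2 and 1548 CPM for replicate 1, with a mean of 1527 ± 29.8 CPM (SD, n = 2), and the fold of 0.973 (95% interval 0.908 to 1.04) included equality. Ankrd2 (chr19:42036000-42045110, plus strand) had 430 reads or 268 CPM in replicate 2 and 2 reads or 2.51 CPM in replicate 1. That is a 107-fold difference, with a wide counting interval of 29.4 to 886 because of the 2 reads. Ankrd1 (chr19:36111961-36120099, minus strand), the family member best known from the heart, had 7 reads or 4.37 CPM in replicate 2 and 8 reads or 10.04 CPM in replicate 1, near the detection limit in both, and its fold of 0.435 (0.134 to 1.37) included equality. In bulk tissue, fewer cells that express a gene and less RNA per cell cannot be told apart.

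Csrp3 (chr7:48830398-48848033, minus strand) had 360 reads or 225 CPM in replicate 2 and no read in replicate 1. That is 59.7-fold higher in replicate 2 if 3 counts are set for replicate 1, and the exact 95% interval of the fold starts at 48.3. Nrap (chr19:56320035-56390037, minus strand) had 467 reads or 291 CPM in replicate 2 and 212 reads or 266 CPM in replicate 1, a mean of 279 ± 18.03 CPM (SD, n = 2) and a fold of 1.10 (0.930 to 1.30). Xirp2 (chr2:67446002-67526614, plus strand), the larger Xin protein, had 1295 reads or 808 CPM in replicate 2 and 428 reads or 537 CPM in replicate 1, a fold of 1.51 (1.35 to 1.68). Xirp1 (chr9:120013755-120023598, minus strand) had 52 reads or 32.5 CPM in replicate 2 and 20 reads or 25.1 CPM in replicate 1, a fold of 1.29 (0.759 to 2.29).

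In replicate 2 the order of levels was Ankrd23, Xirp2, Nrap, Ankrd2, Csrp3, Xirp1 and Ankrd1. Nrap (exact Poisson 95% interval 266 to 319 CPM) and Ankrd2 (244 to 295 CPM) overlapped, and so did Ankrd2 and Csrp3 (202 to 249 CPM). In replicate 1 the order was Ankrd23, Xirp2, Nrap, Xirp1, Ankrd1, Ankrd2 and Csrp3. There Xirp1 (15.3 to 38.8 CPM) overlapped Ankrd1 (4.33 to 19.8 CPM), and Ankrd1 overlapped Ankrd2 (0.304 to 9.06 CPM). Means ± SD (n = 2) were 673 ± 192 CPM for Xirp2 and 28.8 ± 5.21 CPM for Xirp1.

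With 2 libraries, the only pattern that genes can share is 1 ratio. Among 3751 genes with a mean of at least 20 CPM, those with a log2 ratio closest to the 6.26 of Ankrd2 were the predicted genes Gm6829 (6.22), Gm34302 (6.38) and Gm15543 (5.44), the heart-type lactate dehydrogenase Ldhb (6.42) and the slow tropomyosin Tpm3 (6.73). The predicted genes had no read in replicate 1, so their ratios depend on the 1 CPM added before the logarithm. The slow fibre genes lay on the same side, and all 10 of that list that were tested passed the call as higher in replicate 2. Tnnt1, slow troponin T, had 6922 reads in replicate 2 and 7 in replicate 1. Tnnc1, slow and cardiac troponin C, had 2251 reads in replicate 2, against 1 in replicate 1, and Tnni1, slow troponin I, had 579 reads in replicate 2, against 6 in replicate 1. The smallest differences among these 10 were those of the calcium pump Atp2a2 (124 CPM in replicate 2, 13.8 CPM in replicate 1) and the calsequestrin Casq2 (42.4 CPM in replicate 2, 5.02 CPM in replicate 1). Of the 12 fast fibre genes, Myh1 and Myh2 passed as higher in replicate 2 and Atp2a1 and Actn3 as lower, with the list at 160928 CPM in replicate 2 and 253527 CPM in replicate 1. Myh2, a myosin of fast oxidative fibres, was read 554 times in replicate 2 and not at all in replicate 1. The part of the slow fibre content in the Ankrd2 and Csrp3 values was not tested.

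The partner lists that follow are to be read beside the 11.3% of all genes tested that passed the call. Of 12 titin N2A and ankyrin repeat protein partners tested, none passed the call as higher in replicate 2 and 1 passed as lower, the ubiquitin ligase Trim63 (162 CPM in replicate 2, 373 CPM in replicate 1). Titin itself was read at 303 CPM in replicate 2, against 359 CPM in replicate 1. Tcap, the titin cap at the Z disc, was the most abundant partner and stood at 9887 CPM in replicate 2 and 5174 CPM in replicate 1, and Myom2, an M band protein, at 662 CPM in replicate 2, against 1084 CPM in replicate 1. The list's median log2 ratio was -0.26, against 0.05 over all genes tested.

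Of 16 Z disc and muscle LIM protein partners tested, 2 passed as higher and 1 as lower in replicate 2. Actn2, the alpha-actinin of all fibre types, stood at 1036 CPM in replicate 2 and 226 CPM in replicate 1, and Actn3, the alpha-actinin of fast fibres, at 3491 CPM in replicate 2 and 9923 CPM in replicate 1. Myoz2, a calcineurin-binding Z disc protein of slow fibres, had 482 reads in replicate 2 and none in replicate 1. The list's median log2 ratio was 0.06. Myoz1, the paralog of Myoz2 in fast fibres, did not pass (3517 CPM in replicate 2, 3823 CPM in replicate 1). Csrp1, another LIM protein of the Csrp3 family, stood at 5.62 CPM in replicate 2 and 5.02 CPM in replicate 1.

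Of 16 Xin and Nrap partners tested, which include Xirp1, Xirp2 and Nrap, Actn2 passed as higher and 3 genes passed as lower in replicate 2, against 5.78% of all genes higher and 5.47% lower, with a list median of 0.21. The 3 were Ctnna1, an alpha-catenin (15.0 CPM in replicate 2, 43.9 CPM in replicate 1), Tln2, a talin of muscle attachments (13.1 CPM in replicate 2, 35.1 CPM in replicate 1), and Klhl40, a kelch protein that stabilises thin filament proteins (88.6 CPM in replicate 2, 189 CPM in replicate 1). Of 14 genes of the mechanical load and YAP list tested, 2 passed, both higher in replicate 2, with a list median of 0.46. Fhl1, a LIM protein tied to titin N2B, stood at 396 CPM in replicate 2 and 12.5 CPM in replicate 1, and the small heat shock protein Hspb7 at 68.7 CPM in replicate 2 and 10.04 CPM in replicate 1. Hspb8, another small heat shock protein, stood at 248 CPM in replicate 2, against 361 CPM in replicate 1. The YAP targets Ccn1 (13.7 CPM in replicate 2, 5.02 CPM in replicate 1) and Ccn2 (16.2 CPM in replicate 2, 8.78 CPM in replicate 1) did not pass.

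The muscle ends and other muscle states were followed with marker lists, again beside the 11.3% of all genes that passed. Of 6 myotendinous junction markers tested, none passed as higher and 1, the integrin Itga7, passed as lower in replicate 2, with the list at 93.6 CPM in replicate 2 and 163 CPM in replicate 1. Of 7 tendon markers tested, Scx (34.95 CPM in replicate 2, 10.04 CPM in replicate 1) and Chad (16.2 CPM in replicate 2, 3.76 CPM in replicate 1) passed as higher, with the list at 178 CPM in replicate 2 and 128 CPM in replicate 1. Of 5 regenerating and satellite cell markers tested, none passed as higher and the cardiac and fetal actin Actc1 passed as lower (286 CPM in replicate 2, 700.03 CPM in replicate 1). Of the cardiac list 2 genes could be tested, Actc1 and the atrial light chain Myl4, which passed as higher (30.0 CPM in replicate 2, 11.3 CPM in replicate 1). The part of these cells in the levels of the 7 genes was not tested.

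**Figure D2:**
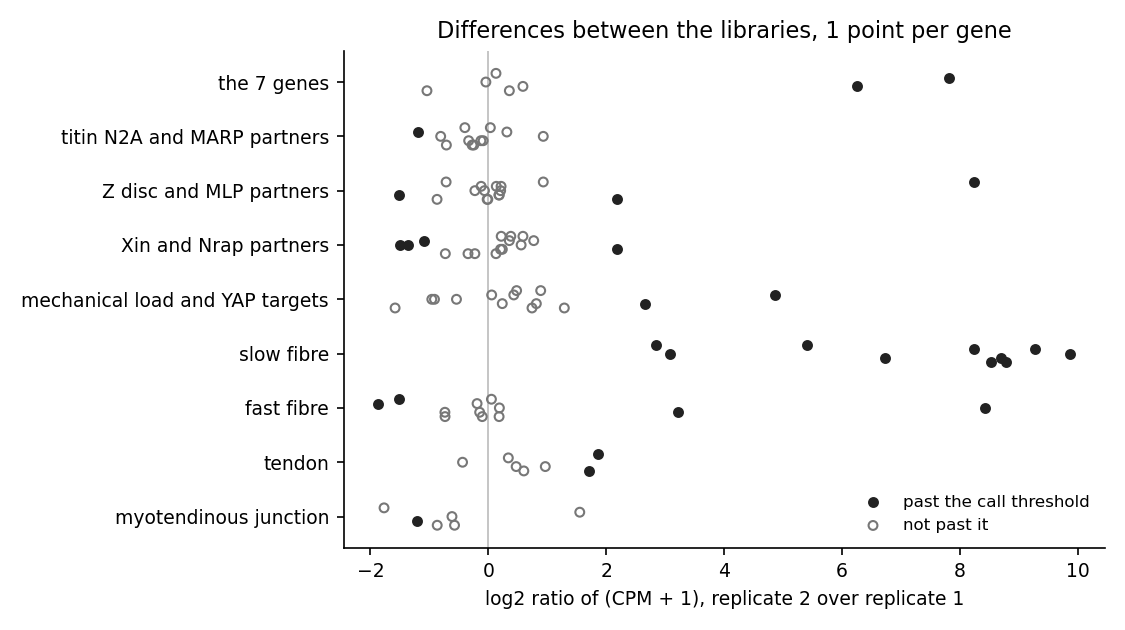
Log2 ratio of CPM plus 1 (replicate 2 over replicate 1) for each gene with at least 10 reads summed, by list; filled points passed the call of the gene test and open points did not. Ankrd2 and Csrp3 lie at 6.26 and 7.82, in the range of the slow fibre genes, and the other 5 genes lie between -1.04 and 0.59.

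The transcripts behind these levels were compared next. The leading transcript of a gene is its annotated transcript with the most Known reads, or the longest for Xirp2, which had none. The deposited tables class each read's model: Known models match an annotated transcript, incomplete splice matches (ISM) hold part of its introns, NIC models join annotated splice sites anew, NNC models use an unannotated splice site, and Genomic models overlap the gene without its splicing. No intron chain had more than 1 model within a library, so reads with the same introns share a model whatever their ends. Only splice sites were therefore used to place spliced reads along a gene. Single-exon models were placed by their deposited ends and counted over the last exon where they overlap it at all.

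Ankrd1, Ankrd2 and Ankrd23 share an exon plan that their selection did not use. Each leading transcript has 9 exons, every one of the coding parts has a length that is a multiple of 3, and exons 5, 6, 7 and 8 are each 99 bases long, or 33 codons, the length of an ankyrin repeat. The fourth of these exons has 53.5% to 65.7% identical bases between pairs of the 3 genes, and over all 4 exons the 12 pairwise comparisons ranged from 53.5% to 67.7%. Loss of such an exon keeps the reading frame. Exon 7 was skipped in a few molecules of Ankrd2 and Ankrd23, so its sequence is shown for both genes, 5′ to 3′ on the coding strand (mm10 chr19:42043753-42043851 and chr1:36531909-36532007).
Ankrd2 exon 7: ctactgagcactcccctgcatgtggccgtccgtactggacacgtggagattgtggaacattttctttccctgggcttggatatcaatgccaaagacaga
Ankrd23 exon 7: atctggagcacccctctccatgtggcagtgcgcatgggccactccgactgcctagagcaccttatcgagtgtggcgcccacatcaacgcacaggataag

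Both exons were kept in nearly all reads. In Ankrd2, 4 of 333 informative reads of replicate 2 skipped exon 7 (1.20%), and none of 2 in replicate 1 did. In Ankrd23, exon 7 with its annotated neighbours was skipped in 7 of 1813 reads of replicate 2 (0.386%), all in the annotated transcript Ankrd23-204, and in 0 of 1045 reads of replicate 1, which allows up to 0.287%. The 8 internal exons of Ankrd23 that could be tested did not differ between the libraries past the call (Fisher's exact test, adjusted over 18577 exons).

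Ankrd2 was read mostly as 1 transcript in replicate 2. Ankrd2-202 held 297 of 430 reads (69.1%, exact 95% interval 64.5 to 73.4), and 306 reads (71.2%, 66.6 to 75.4) joined the first intron to the last on 1 molecule. A 2-exon incomplete model with only the last intron held a further 77 reads (17.9%). Introns 2 to 7 were spliced in every informative read, with no read of replicate 2 that retained one inside an internal exon. Retention of introns 1 and 8 would lie in an outer exon and was not counted. Outer exons of incomplete models were not counted either. As deposited, the 77-read model starts at chr19:42043105, ahead of exon 7. Single-exon models with 16 reads start at chr19:42044226, between exons 8 and 9. In replicate 1 the 2 reads were 1 read of Ankrd2-202 and 1 incomplete read.

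Ankrd23-201 was the leading form of Ankrd23 in both libraries, with 1589 of 2413 reads in replicate 2 (65.9%) and 941 of 1234 reads in replicate 1 (76.3%). Among reads with the first intron of Ankrd23-201 or Ankrd23-202, that of Ankrd23-201 was used in 1679 of 1680 reads of replicate 2. In replicate 1 it was used in 1003 of 1004 reads, and that of Ankrd23-202 in 1 read of each library. Other starts fall outside this count, such as an unannotated 9-exon chain from chr1:36534711 with 3 reads in each library. Single-exon models at the 3′ edge of the last annotated exon followed, with 484 reads in replicate 2 (20.1%) and 120 in replicate 1 (9.72%). As deposited, they span chr1:36528947-36530534 and meet the last exon of Ankrd23-201 (chr1:36530534-36531641) only at its outermost base. Inside internal exons, intron 6 was the most often retained, in 31 of 1859 reads of replicate 2 (1.67%) and 28 of 1085 reads of replicate 1 (2.58%). Intron 2 was retained there in none of 1729 reads of replicate 2 and none of 1043 reads of replicate 1. Retention of intron 1 would lie in a first exon and that of intron 8 in a last exon, so neither was counted. The annotated protein-coding gene Gm42417, which overlaps Ankrd23 on the same strand, had 1 read in replicate 2 and 0 in replicate 1.

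Ankrd1 was read as Ankrd1-205 in 3 molecules of each library. Single-exon models at the 3′ edge of its last exon held 4 reads of replicate 2 and 3 of replicate 1. As deposited, these models span chr19:36111961-36111967, and the last exon lies at chr19:36111965-36112817. The spliced reads of Ankrd1 had 1 choice in common. Exon 8 ends 12 bases later in Ankrd1-205 than in Ankrd1-201, which makes it 99 bases long against 87, and all 3 informative reads of replicate 2 and all 4 of replicate 1 used the later site. With so few reads the share could be as low as 29.2% in replicate 2 and 39.8% in replicate 1 (exact 95% intervals). The exon is shown with the 12 bases in capitals (chr19:36114977-36115075, minus strand), since they complete the length shared with the other ankyrin repeat genes.
Ankrd1 exon 8: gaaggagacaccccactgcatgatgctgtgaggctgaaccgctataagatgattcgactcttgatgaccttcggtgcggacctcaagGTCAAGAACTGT

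Csrp3 was also read mostly whole in replicate 2. Csrp3-201, with 6 exons, held 279 of 360 reads (77.5%, 72.8 to 81.7). All 281 reads with the annotated first intron of either transcript used that of Csrp3-201 and none that of Csrp3-202, which allows up to 1.07% (3 counts). Introns 2, 3 and 4 were spliced in every informative read, with retention again counted inside internal exons only. Retention of introns 1 and 5 would lie in an outer exon and was not counted. Incomplete models held 76 reads (21.1%), among them 41 with only the last intron and 22 of the last exon alone.

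Promoter sequence was set beside the levels of the 2 genes that stood apart. RefSeq's table (GRCm38.p6) matched 6 of the 7 genes with 8 promoters, each from 250 bases before to 50 bases after a start, and Xirp1 was not matched. The windows of Ankrd2 (chr19:42035777-42036076, plus strand) and of the Csrp3 start used by the reads (chr7:48848002-48848301, minus strand) are shown with the matches to CANNTG (the E-box) and TATAAA in capitals.
Ankrd2 promoter: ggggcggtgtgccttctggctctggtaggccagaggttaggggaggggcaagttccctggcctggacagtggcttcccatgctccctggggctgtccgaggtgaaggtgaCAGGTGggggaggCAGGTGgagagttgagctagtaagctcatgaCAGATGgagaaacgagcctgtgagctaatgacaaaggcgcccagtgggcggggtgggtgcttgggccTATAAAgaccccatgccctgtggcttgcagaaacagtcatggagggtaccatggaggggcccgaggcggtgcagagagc
Csrp3 promoter: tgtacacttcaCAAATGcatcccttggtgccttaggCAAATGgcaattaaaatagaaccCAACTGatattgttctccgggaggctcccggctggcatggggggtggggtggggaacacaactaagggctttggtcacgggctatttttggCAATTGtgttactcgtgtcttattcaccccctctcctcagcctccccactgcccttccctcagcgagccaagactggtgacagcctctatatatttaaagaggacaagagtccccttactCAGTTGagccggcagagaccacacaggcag

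Both strands were searched. CANNTG, which reads the same on both strands, had 3 matches in the Ankrd2 window and 5 in that of Csrp3, and 72.3% of all 32851 promoters in the table held at least 1. TATAAA matched once in Ankrd2, 29 bases before the start, and in none of the other 7 windows, against 13.6% of all promoters. CATTCC, the core of the MCAT element, had 2 matches in Ankrd1 and 1 in each of the 2 windows of Ankrd23, against 14.7% of all promoters. The MEF2 site had 1 match, in Xirp2, against 3.19% of all promoters, and the CArG box had none in the 8 windows, against 1.63%. A match is a description of these letters and shows no binding.

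**Figure D3:**
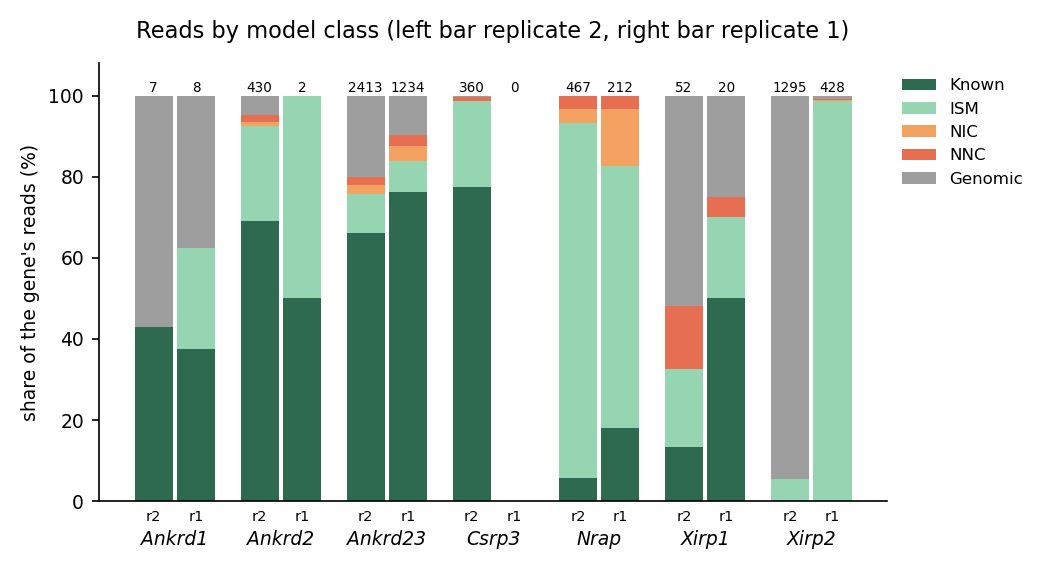
Share of each gene's reads (%) by model class, with the left bar of a pair (r2) for replicate 2 and the right bar (r1) for replicate 1, and the number of reads above each bar. Ankrd2, Ankrd23 and Csrp3 are mostly Known in replicate 2, while Nrap and Xirp2 are mostly incomplete or Genomic in both libraries.

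The short transcripts were more often read whole than the long ones. Reads that joined the first and the last intron of the leading transcript made up 78.1% of Csrp3 reads (877 bases) and 71.2% of Ankrd2 reads (1138 bases) in replicate 2. For Ankrd23 (1964 bases) they made up 68.8% in replicate 2 and 80.6% in replicate 1, and for Nrap (5501 bases) 10.1% (exact 95% interval 7.49 to 13.2) in replicate 2 and 31.1% (25.0 to 37.8) in replicate 1. For Xirp1 (5839 bases) they made up 13.5% in replicate 2 and 50% in replicate 1, and for Xirp2 (11979 bases) 1 read in each library. The intervals of Xirp1 (5.59 to 25.8 in replicate 2, 27.2 to 72.8 in replicate 1) overlapped those of Nrap, so these genes could not be ordered. Ankrd1 (2020 bases) had 3 of 7 such reads in replicate 2 and 3 of 8 in replicate 1.

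The share of reads in Known models differed in the same direction. It was lower in replicate 2 past the call, which here asks for 10 percentage points or more, for 3 of the 4 members with at least 20 reads in each library, against 10.7% of all 3204 genes tested (11% in either direction). Ankrd23 had 66.1% Known reads in replicate 2 and 76.3% in replicate 1 (Fisher's exact test, Benjamini-Hochberg adjusted p = 8.7e-09). Nrap had 5.78% in replicate 2 and 17.9% in replicate 1 (adjusted p = 5.5e-05, Fisher's exact test). Xirp1 had 7 of 52 reads or 13.5% in replicate 2 and 10 of 20 reads or 50% in replicate 1 (adjusted p = 0.034, Fisher's exact test). Xirp2 had no Known read in either library. Over all genes tested the median share was also lower in replicate 2 (73.5%, against 81.0% in replicate 1), with a median difference of -4.18 points per gene. Over all reads in annotated genes, however, Known models held 67.6% in replicate 2 and 66.6% in replicate 1. The part of read completeness in the shares of the 3 genes was not tested. Asking for at least 50 reads left Ankrd23 and Nrap past the call, and a minimum of 20 points left Xirp1.

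**Figure D4:**
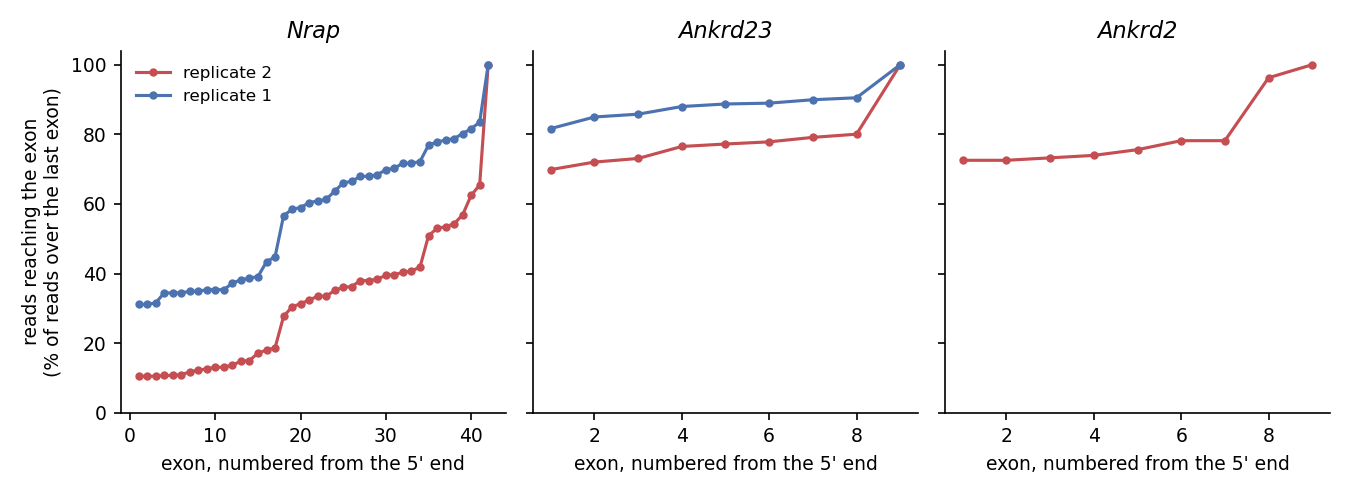
Number of reads with a splice site in the given exon or further 5', as a percentage of the number over the last exon, by exon number for Nrap, Ankrd23 and Ankrd2; replicate 1 is not drawn for Ankrd2, where it had 2 reads. Nrap falls to 10.5% at exon 1 in replicate 2 and 31.1% in replicate 1, and Ankrd23 and Ankrd2 stay at or above 69.9%. The number over the last exon of Ankrd23 includes single-exon models that meet that exon only at its 3' edge.

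Nrap is a chain of nebulin-like repeats read here with 42 exons, of which 15 are 105 bases long, or 35 codons, the length of a nebulin repeat. Reads thinned out towards its 5′ end, and by exon 18 the reads were at 27.7% of those over the last exon in replicate 2 and 56.6% in replicate 1. At exon 17 they were at 18.7% in replicate 2 and 44.8% in replicate 1, a step that came mostly from an incomplete model of 25 exons that starts in exon 18 (37 reads in replicate 2, 22 in replicate 1). Models of the last exon alone held 162 of 467 reads in replicate 2 (34.7%) and 35 of 212 in replicate 1 (16.5%). An incomplete model of the last 8 exons held 36 reads in replicate 2 and 7 in replicate 1. The full annotated form Nrap-202 had 13 reads in replicate 2 and 34 in replicate 1. Counted in Known models alone, the log2 ratio of Nrap was -1.48, against 0.13 with all its reads.

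The splicing of Nrap differed between the libraries at 1 exon. Exon 12 of Nrap-202 (chr19:56374364-56374468, minus strand), a 105-base exon that 3 of the 6 annotated transcripts hold, was included in 29 of 61 informative reads of replicate 2 and in 66 of 75 reads of replicate 1. Inclusion was 47.5% in replicate 2 (exact 95% interval 34.6 to 60.7) and 88.0% in replicate 1 (78.4 to 94.4), with a mean of 67.8% ± 28.6 (SD, n = 2). The difference of -40.5 percentage points passed Fisher's exact test (adjusted p = 0.0013 over 18577 exons). It was 1 of 9 exons called in all genes, or 0.0484% of all exons tested. That share also counts exons that no read skipped in either library, which could not be called. Exon 12 was the only one called of the 49 exon forms tested in these 7 genes, which include the 302-base form of Ankrd23. As background, inclusion of this exon is known, in mouse, from skeletal muscle and its skipping from the heart. The cardiac list stood at 319 CPM in replicate 2 and 713 CPM in replicate 1, mostly Actc1, and the slow fibre list was far higher in replicate 2, as given above. The part of either in this difference was not tested. Without incomplete and Genomic models the call stood (45.8% in replicate 2, 88.7% in replicate 1, adjusted p = 0.0019). With Known models alone inclusion was 48.1% of 27 reads in replicate 2 and 89.5% of 38 reads in replicate 1, and the call was lost (adjusted p = 1 and unadjusted p = 0.00049, Fisher's exact test).

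A second exon was skipped in both libraries, with no difference past the call. Exon 36 (chr19:56328996-56329100, 105 bases), which all 6 annotated Nrap transcripts hold, was included in 213 of 236 reads of replicate 2 (90.3%, 85.7 to 93.7) and 147 of 163 reads of replicate 1 (90.2%, 84.5 to 94.3), a mean of 90.2% ± 0.0496 (SD, n = 2; adjusted p = 1, Fisher's exact test). No annotated transcript thus lacks it, although 23 reads of replicate 2 and 16 of replicate 1 did. The other 38 internal exons were skipped in at most 1 read of replicate 2 and in none of replicate 1. Skipping is not the only choice, however. Exon 6 (chr19:56382260-56382364, 105 bases) was also read with an acceptor 3 bases further 5′ that no annotated Nrap transcript uses. The annotated acceptor was used in 31 of 50 reads of replicate 2 (62.0%, 47.2 to 75.3) and 44 of 73 reads of replicate 1 (60.3%, 48.1 to 71.5), and the other one in 19 reads of replicate 2 and 29 of replicate 1. These intervals overlapped, and the 3 bases keep the reading frame. Nrap had 7 NNC reads in replicate 1, fewer than the 29 with the other acceptor. The deposited classes thus do not treat this site as unannotated in all of these reads. Exons 12 and 36 are shown in the coding direction, since each keeps the frame when lost.
Nrap exon 12: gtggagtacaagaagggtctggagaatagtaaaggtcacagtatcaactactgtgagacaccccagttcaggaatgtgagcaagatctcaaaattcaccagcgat
Nrap exon 36: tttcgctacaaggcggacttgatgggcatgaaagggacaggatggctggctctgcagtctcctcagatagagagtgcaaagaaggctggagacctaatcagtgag

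Some molecules spanned both exons, 24 exons apart. In replicate 2, 26 such reads kept both and 30 lacked exon 12 only, 2 lacked exon 36 only and 1 lacked both. In replicate 1, 61 reads kept both and 9 lacked exon 12 only, 5 lacked exon 36 only and none lacked both. Of the molecules without exon 12, 30 in replicate 2 and 9 in replicate 1 thus held exon 36.

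**Figure D5:**
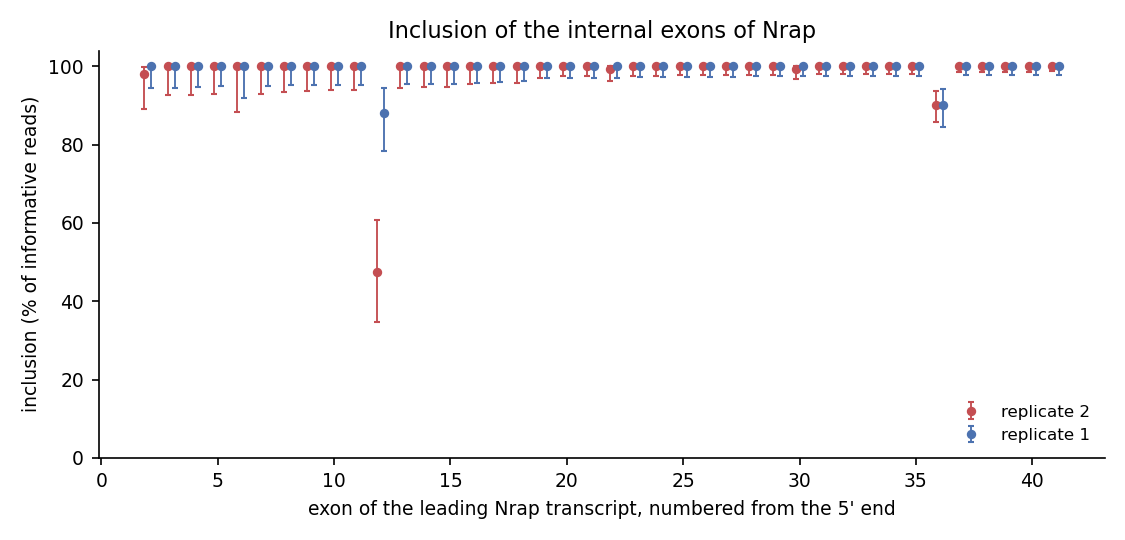
Inclusion (% of informative reads) of the 40 internal exons of Nrap-202 by exon number in replicate 2 and replicate 1, with exact 95% intervals of counting error. Exon 12 lies at 47.5% in replicate 2 and 88.0% in replicate 1, exon 36 at 90.3% in replicate 2 and 90.2% in replicate 1, and all others at 98.0% or more; forms of an exon with another splice site, as at exon 6, are not counted.

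Xirp2 was read almost only at its 3′ end. Its transcript Xirp2-202 is 11979 bases long, with a central exon 7 of 9265 bases that holds most of the Xin repeats, and a last exon of 1843 bases (chr2:67524772-67526614). Models of the last exon alone held 1208 of 1295 reads in replicate 2 (93.3%) and 361 of 428 in replicate 1 (84.3%). The tables class these reads as Genomic in replicate 2 and as incomplete in replicate 1, although both lie over the same exon. Without incomplete and Genomic models 1 read in replicate 2 and 2 reads in replicate 1 remained, and the log2 ratio turned to -1.12, against 0.59 with all reads. Reads with a splice site in exon 7 or further 5′ numbered 67 in replicate 2, or 5.24% of the number over the last exon, and 60 in replicate 1, or 14.3%. Most belonged to an incomplete model of the last 3 exons, with 66 reads in replicate 2 (5.10%) and 54 in replicate 1 (12.6%). Of Xirp2 molecules, 1 in replicate 2 and 3 in replicate 1 reached exon 1.

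The reads that crossed from exon 7 to exon 8 chose 1 of the 2 annotated acceptors, which lie 16 bases apart. All 67 in replicate 2 and all 55 in replicate 1 used that of Xirp2-202, and none used that of Xirp2-201, which allows up to 4.48% and 5.45% (3 counts). The 16 bases are no multiple of 3. In the annotation, Xirp2-202 ends its coding sequence in exon 8 after 9849 coding bases, while Xirp2-201 goes on for 1477 coding bases in the last exon, to 11352. The junctions are shown with the 16 bases in capitals, after 24 bases of exon 7 (exon 8 starts at chr2:67519220 in Xirp2-202 and at chr2:67519236 in Xirp2-201).
Xirp2-202: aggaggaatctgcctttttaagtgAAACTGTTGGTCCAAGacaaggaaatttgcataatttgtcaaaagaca
Xirp2-201: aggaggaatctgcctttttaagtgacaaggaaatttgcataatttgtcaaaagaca

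Exon 7 was shortened or lost in single molecules. In replicate 2, 1 read kept only the last 365 bases of exon 7. In replicate 1, 1 read that starts within exon 7, at chr2:67511677, lacked an inner stretch of the exon and kept its last 3365 bases. Another read of replicate 1 joined exon 6 to exon 8.

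Xirp1 has 3 exons, and its reads were few. The annotated Xirp1-201 held 7 of 52 reads in replicate 2 (13.5%) and 10 of 20 in replicate 1 (50%), and models of a single exon over the last exon held 27 reads in replicate 2 (51.9%) and 5 in replicate 1 (25.0%). An incomplete 2-exon model with the last intron held 9 reads in replicate 2 and 1 in replicate 1, and another with the first intron only held 1 read in replicate 2 and 3 in replicate 1. In replicate 2, 7 reads joined the first exon of Xirp1 to a stretch beyond its 3′ end (chr9:120004227), within the span of Cx3cr1, a chemokine receptor gene on the same strand, and no read of replicate 1 did so. Cx3cr1 itself had 6 reads in replicate 2 and 1 in replicate 1.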

How the data were processed

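Per the file headers and the README beside the files, the deposited data are, per library, whole-number counts of long reads for each transcript model and the exons of those models, made by the authors on mm10 with GENCODE M21. The classes are those of TALON. Aligner, filters and tool versions are not stated there. The counts are raw and come from 1 library each. Here the reads of all models of an annotated gene were summed, leaving out spike-ins and antisense or intergenic loci, and scaled to CPM. Two-sided Fisher's exact tests with Benjamini-Hochberg adjustment compared genes (10 or more reads summed), exon inclusion (20 or more informative reads per library) and Known shares (20 or more reads per library). With 2 libraries in 1 group no count model can be fitted. Inclusion sets reads of models that hold an exon between 2 introns against reads with an intron joining its neighbours. Log2 ratios are on CPM plus 1. Intervals are exact (Clopper-Pearson or Poisson, 95%) and cover counting error only, since no molecular identifiers are given. TMM factors (edgeR 4.0.16) and size factors (DESeq2 1.42.0, R 4.3.3) were other scalings; Python 3.11.15, scipy 1.17.1 and pandas 2.3.3 were used. The genes and lists were chosen with earlier results of these data known. Named are models with at least 5% of a gene's reads and 3 reads, list genes past the call, the 2 most abundant of each partner list, and the 5 genes closest to Ankrd2 in ratio; other exons, events and list genes were chosen after their values were seen. Exon sequences come from GENCODE M21 transcripts and promoters from RefSeq.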

Additional observations from a re-analysis of the deposited data

Results flagged for a closer look

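Reads from the strand opposite 4 of the genes lie outside the counts above, in loci that the deposited tables class as antisense. Over Ankrd2, 1 such locus held 53 reads in replicate 2, against none in replicate 1. Over Nrap, 5 loci held 52 reads in replicate 2, and 2 loci held 5 reads in replicate 1. Over Ankrd23, 2 loci held 7 reads in replicate 2 and 2 held 8 reads in replicate 1. Over Ankrd1, 2 loci held 4 reads in replicate 2 and 1 held 3 reads in replicate 1. Each exceeds in replicate 2 the 3 reads that a count of 0 allows. Antisense loci as a whole took 5.38% of the reads in the table of replicate 2 and 2.44% of those of replicate 1. How strand was assigned to the reads is not given in the sources used here.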

How the results depend on the processing

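Counts of genes called kept within 1.5 times the 911 reported, between 709 with replicate 2 thinned to the depth of replicate 1 and 1022 without incomplete and Genomic models. Leaving Atp2a1 out of the totals moved log2 ratios by -0.12 and the split of calls to 348 higher and 567 lower in replicate 2, against 468 higher and 443 lower as reported; with Known models alone it was 257 higher and 587 lower. Of the 7 genes, chosen with their levels known, Ankrd2 and Csrp3 lay past the threshold in each of the 8 alternatives, which is a description and no support. Nrap also lay past it, lower in replicate 2, with Known models alone (log2 ratio -1.48) and without incomplete and Genomic models (-1.21), against 0.13 with all models. The ratio of Xirp2 reversed to -1.12 without incomplete and Genomic models, which leaves 1 read in replicate 2 and 2 in replicate 1. Ankrd23's ratio changed sign with TMM factors (0.01, against -0.04). With Known models alone 1 exon was called in place of 9. With a minimum difference of 20 points 217 genes were called by Known share in place of 352. No paired analysis was possible because there is 1 group, and leaving out a replicate leaves no comparison. With reads this few, Ankrd1, Xirp1 and the 5′ parts of Nrap and Xirp2 allow no finer statement.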
